A study of Mus musculus with 24 samples.

Results

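LncMyoD plasmid was added to MyoD in mouse fibroblasts, and the cells given both were compared with cells given MyoD alone. The comparison took 12 of the 24 libraries of the series, chosen by their treatment labels: 6 from cells given MyoD adenovirus and 6 from cells given MyoD adenovirus together with LncMyoD plasmid. Each arm held 2 libraries from each of 3 lines of C3H 10T1/2 cells, a fibroblast line from mouse embryo: wild type cells, LncMyoD-KO clone 1 and LncMyoD-KO clone 2. The other 12 libraries, from untreated cells and from cells given the plasmid without virus in the same lines, were used only to set the plasmid change without MyoD beside it. Each knockout line is 1 clone, no labelled group received an empty plasmid or an empty virus, and the promoter of the plasmid is not given in the sources used here. Growth medium held 10% fetal bovine serum, and 2% horse serum replaced it after conversion, as the labels state. The labels do not say that the 2 libraries of a group came from separate cultures, so the library-to-library spread behind each p-value may be technical. Where a fit gave all lines 1 shared plasmid change, its spread also held differences between lines in that change.

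MyoD is a transcription factor that binds E-box sequences at muscle genes and can turn fibroblasts into muscle-like cells. LncMyoD is a long noncoding RNA transcribed next to Myod1 in muscle cells, known as a target of MyoD and as a factor that muscle differentiation depends on. It is known to bind the RNA-binding protein Igf2bp2. The comparison asks what the plasmid adds to the MyoD response, and whether the knockout clones regain something that wild type cells, with their own gene intact, already have.

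Depth in the 12 libraries was 2.43 to 5.79 gigabases of aligned sequence, and no read counts were used, so counting intervals cannot be given. Sequence of the ribosomal repeat on chromosome 17 held 36.8% to 66.0% of the signal in wild type and clone 1 while in clone 2 it held 5.62% to 7.90%. The clone 2 libraries stood apart and listed 10416 to 10969 genes at 1 TPM (a transcript's length-corrected share of its library) or more, against 4514 to 6964 in the other lines. Replicates of clone 1 differed most, with a Pearson correlation across genes of 0.753 with MyoD alone and 0.782 with both agents, against 0.851 to 0.927 in the other groups. Levels below are scaled TPM, that is TPM divided by a library factor, and are compared within a line. Transcripts that carried no gene name held 17.5% to 72.6% of the TPM of a library, so a level of 0 can be a transcript that was not assembled under its gene's name. Values by overlap, given beside the others where they differ, add such transcripts to the gene they overlap.

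The plasmid was checked first, at the LncMyoD locus. An unnamed transcript of 2 exons and 621 nt on the minus strand (GRCm38, chr7:46345772-46351188) overlaps the annotated noncoding gene 1700025L06Rik (chr7:46345771-46349373), which lies upstream of Myod1 (chr7:46376474-46379099, plus strand). It was assembled in 6 of 6 libraries given both agents, in 6 of 6 given the plasmid alone, and in 0 of 12 without the plasmid. The exon it shares with the annotated transcript holds 474 bases, and the first 300 of them (chr7:46345945-46346244, minus strand, read from the GENCODE vM21 transcript on GRCm38) are printed because this is the RNA that separates the arms; the other assembled exon is not in the annotation.
LncMyoD shared exon: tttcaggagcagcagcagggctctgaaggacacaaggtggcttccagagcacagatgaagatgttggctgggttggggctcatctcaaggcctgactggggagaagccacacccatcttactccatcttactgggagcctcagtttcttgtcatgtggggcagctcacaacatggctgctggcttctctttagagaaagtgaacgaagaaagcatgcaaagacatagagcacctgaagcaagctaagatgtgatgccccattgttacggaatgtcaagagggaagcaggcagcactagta

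With both agents this transcript stood at 4.43 and 15.1 scaled TPM in wild type. The levels were 43.4 and 109 in clone 1 and 0.963 and 0.740 in clone 2. This 2-exon transcript was listed at 0 in all 6 libraries with MyoD alone, so the arms did not overlap in any line (exact permutation test within lines, two-sided p = 0.00926, the smallest its 216 arrangements allow). The transcript is the unnamed form most often assembled at the locus over the 24 libraries, so its choice from these data favoured that p. Other minus-strand transcripts were assembled at the locus in 1 MyoD-only library of clone 1 (0.692 TPM before scaling) and 1 of clone 2 (1.95 TPM before scaling). On that unscaled measure the 2-exon transcript had 4.48 and 3.47 TPM in clone 2 with both agents. By overlap, 1700025L06Rik stood at 0 and 0.692 scaled TPM in clone 2 with MyoD, against 1.37 and 0.998 with both agents. Wild type cells with MyoD alone were listed at 0 both ways, so these values bear on the plasmid labels, and the knockout itself could not be checked here.

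Myod1 itself, in which virus and chromosome cannot be told apart, was measured next. Wild type had 5155 and 4977 scaled TPM with MyoD and 5530 and 6796 with both agents. Clone 1 had 4006 and 5647, then 6397 and 7466, and clone 2 had 274 and 240, then 262 and 260. The mean log2 difference was 0.28 ± 0.11 (SE, 6 libraries against 6), with an exact two-sided permutation p of 0.0278 within lines. Plasmid libraries lay above MyoD-only libraries in wild type and clone 1, while in clone 2 they lay between them. In the fit across all genes the difference was not called (limma, adjusted p = 0.80).

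**Figure D1:**
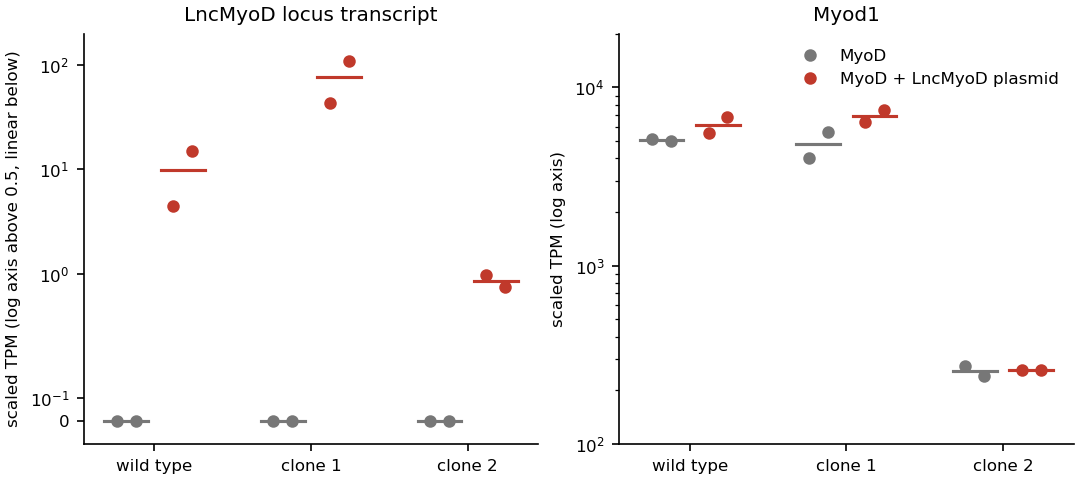
Scaled TPM of the LncMyoD locus transcript (left, log axis above 0.5) and of Myod1 (right, log axis) in the 12 libraries with MyoD; each point is 1 library, short lines are means of 2, grey is MyoD and red is MyoD with plasmid. The locus transcript is at 0 in every MyoD-only library and at 0.740 to 109 with the plasmid.

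Across all genes the plasmid produced no change that passed the test. Of 9282 genes tested with line as a block, 0 were called at an adjusted p under 0.05 (0%, limma with Benjamini-Hochberg adjustment). At an unadjusted p under 0.05 there were 531 genes (5.72%), 240 higher and 291 lower with the plasmid. The median log2 change was 0.02 and the median standard error 0.34. For a typical gene, a change well under 1 log2 unit could not be told from 0 even before adjustment. After adjustment over 9282 genes, larger changes also went uncalled. The smallest p belonged to Gga2, an adaptor of protein sorting at the Golgi, with a log2 change of -2.20 ± 0.30 (adjusted p = 0.14). When all 24 libraries entered the fit, each line and MyoD state also got its own plasmid term. In that fit 29 of 11807 genes were called, 13 higher and 16 lower. Some changed in 1 line only, such as Cdon, with -2.84 in wild type and 0 in both clones. Of the 29, 15 had the same sign in all 3 lines, against 23.9% of the 9282 genes tested with line as block. Only 23 of the 29 were among those 9282. Calling on the mean over lines favoured a shared sign, so these shares do not measure agreement between lines.

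Gga2 was named after its values were seen, and its levels show what lies behind its p. Wild type had 3.996 and 3.07 scaled TPM with MyoD and 0.000186 and 0.0011 with both agents. Clone 1 had 2.24 and 10.3, then 0 and 0, and clone 2 had 4.56 and 3.66, then 0.371 and 0.468. The arms did not overlap in any line. When unnamed transcripts were given to genes by overlap, however, clone 2 had 6.45 and 5.03, then 6.98 and 6.53, and the log2 change over lines was -1.41 (limma, adjusted p = 0.81).

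Genes that moved the same way in all 3 lines were counted in 2 steps. The mean change was positive in every line for 1185 genes (12.8%) and negative in every line for 1037 genes (11.2%). The arms did not overlap in any of the 3 lines for 47 higher genes (0.506%) and 65 lower genes (0.7%). None of these was called, and the 24 described here, 12 in each direction, are the ones with the smallest p among those with at least 5 scaled TPM in an arm. Since the arms of these genes were required not to overlap, their separation and shared sign describe how they were chosen. With 2 libraries against 2 in a line, genes can share a sign or separate without any plasmid effect. The counts were not tested against that rate. By overlap, 11 of the 12 higher genes kept their sign and 5 stayed separated in all 3 lines, and the median log2 change was 0.35 in place of 0.79. Of the 12 lower genes, 12 kept their sign and 7 stayed separated, with a median of -0.81 in place of -1.28.

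Among the 12 higher genes, Rspo2, a secreted enhancer of Wnt signalling, stood at 58.3 and 55.8 scaled TPM in wild type with MyoD and at 95.2 and 70.4 with both agents. In clone 1 it went from 84.4 and 77.2 to 138 and 94.95, and in clone 2 from 33.5 and 37.5 to 42.2 and 64.8. Its log2 change was close to equal in the 3 lines, at 0.51, 0.50 and 0.55 (mean 0.52, 95% interval 0.20 to 0.84). By overlap the mean was 0.34 and the clone 1 arms overlapped.

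Cyp1b1, a cytochrome P450 of steroid and retinoid metabolism, had 54.5 and 65.8 scaled TPM in wild type with MyoD and 76.7 and 74.3 with both. Clone 1 went from 70.8 and 108 to 113 and 126, and clone 2 from 7.81 and 9.80 to 15.7 and 17.3. The mean log2 change was 0.54 (95% interval 0.21 to 0.86), widest in clone 2 at 0.84, and 0.32 by overlap, with all 3 lines still separated. Spon2, a secreted matrix protein, differed more between lines: its log2 change was 0.86 in wild type, 2.61 in clone 1, where it was at 0 and 0.128 scaled TPM without the plasmid, and 0.35 in clone 2. By overlap, Spon2 in clone 1 had 2.34 and 9.43, then 3.69 and 7.11, so those arms overlapped, and its mean change was 0.35 in place of 1.27.

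Ch25h, which makes 25-hydroxycholesterol, went from 30.2 and 28.1 scaled TPM to 36.1 and 35.4 in wild type. In clone 1 the levels were 0.192 and 1.65, then 5.45 and 9.02, and in clone 2 they were 0.0891 and 0.834, then 1.24 and 3.47. Stom, the membrane protein stomatin, had the largest mean log2 change of the 12, 1.41 (95% interval 0.45 to 2.38), of which clone 1 gave 2.97. Ch25h and Stom stayed separated in all lines by overlap, with 1.19 and 1.20. The others were Orai3, a calcium channel subunit (0.81), Atl3, a membrane-shaping GTPase of the endoplasmic reticulum (1.33), Disp1, which releases Hedgehog ligands (0.77), S1pr2, a sphingosine-1-phosphate receptor (0.47), Psap, the precursor of lysosomal saposins (0.36), Mettl17 (1.06) and Glt8d2 (0.43). By overlap, Orai3 (0.77) and S1pr2 (0.48) stayed separated, while Disp1 changed sign (-0.29) and Atl3 (0.44), Mettl17 (0.21), Psap (0.26) and Glt8d2 (0.27) no longer separated in all lines. Adjusted p-values of the 12 were 0.715 to 0.80 (limma).

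The 12 lower genes include Rac1, a small GTPase of the actin cytoskeleton that myoblast fusion needs. Rac1 had 190 and 178 scaled TPM in wild type with MyoD and 66.3 and 49.8 with both agents. In clone 1 the levels were 193 and 184, then 111 and 50.1, and in clone 2 they were 33.9 and 48.2, then 28.4 and 16.4. The log2 change was -1.29 ± 0.23 (95% interval -1.78 to -0.79, limma adjusted p = 0.64). H1f0, a linker histone associated with cells that have stopped dividing, went from 142 and 135 to 52.6 and 50.5 in wild type, from 154 and 112 to 72.5 and 28.3 in clone 1, and from 87.3 and 87.0 to 72.7 and 46.3 in clone 2. Both genes were lower in each line, least so in clone 2, and both stayed separated by overlap (-1.32 and -1.20).

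Txnrd1, a thioredoxin reductase of the cellular redox system, had the largest mean log2 change of the 24, -2.74 (95% interval -4.02 to -1.47). Wild type had 11.6 and 15.7 scaled TPM, then 0.129 and 5.24. Clone 1 had 51.4 and 28.2, then 3.18 and 0.629, and clone 2 had 18.0 and 11.5, then 9.69 and 0.660. The MyoD-only libraries were above the plasmid libraries throughout. With unnamed transcripts given to genes by overlap its log2 change was -1.61 and its adjusted p 0.0759 (limma), so the size but not the direction depended on how transcripts were named.

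Cdk16, a kinase that works with cyclin Y, went from 159 and 91.8 scaled TPM to 62.1 and 32.3 in wild type, from 135 and 100 to 36.7 and 22.3 in clone 1, and from 13.9 and 9.71 to 8.44 and 8.17 in clone 2. Its log2 change was -1.28 (95% interval -1.91 to -0.65). Vat1, an oxidoreductase-like protein of vesicle membranes, had a log2 change of -0.92, from 126 and 86.8 to 60.6 and 30.1 in wild type. Socs5, a suppressor of cytokine signalling, had -1.42, from 80.5 and 61.3 to 29.0 and 14.9 in wild type. Mospd3 (-1.01), Tbc1d20, a GTPase-activating protein for Rab1 (-1.62), C9orf72 (-1.45), Reep3 (-1.53), Pnrc1 (-0.81) and Mlf2 (-0.36) complete the 12. By overlap, Vat1 (-0.88), Mospd3 (-1.10), Pnrc1 (-0.75) and Cdk16 (-0.77) stayed separated in all lines. Socs5 (-0.85), Tbc1d20 (-0.27), C9orf72 (-0.39), Reep3 (-0.40) and Mlf2 (-0.28) did not. Over the 26 alternative fits, the 24 genes gave 624 values, of which 1, that of Disp1 by overlap, had another sign than reported here. Most of these fits used the same scaled values, where the choice of non-overlapping arms fixed the sign, so this count says little about stability.

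**Figure D2:**
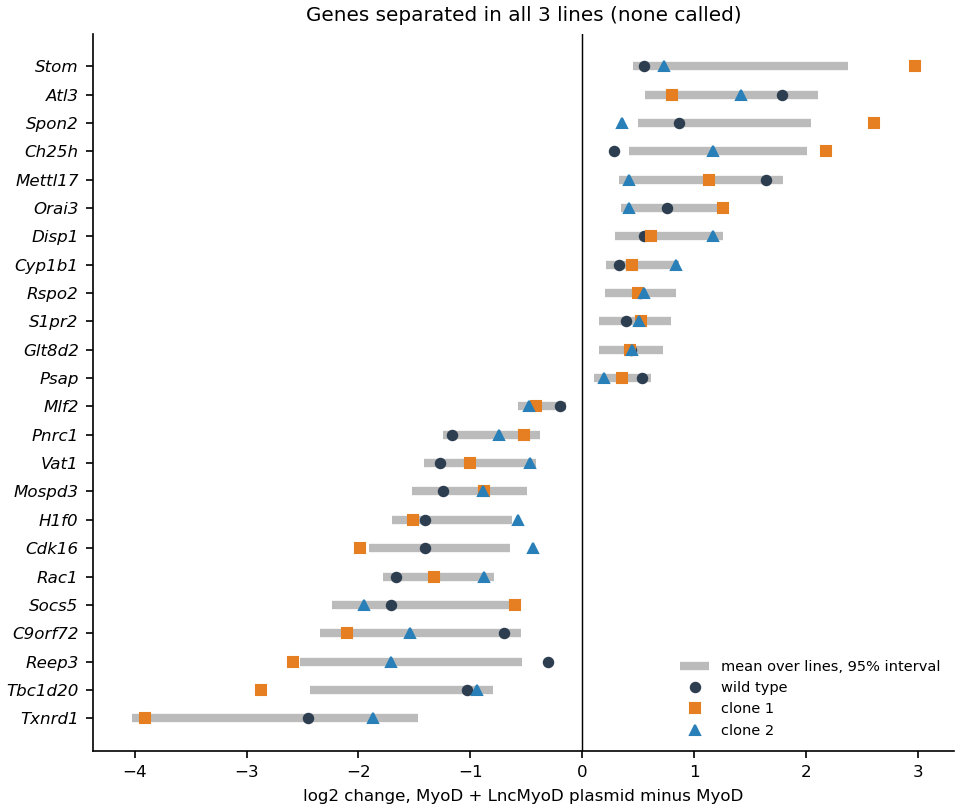
Log2 change of the 24 genes whose arms do not overlap in any of the 3 lines; grey bars are the 95% interval of the mean over lines, and symbols are the mean change in each line (2 libraries against 2). Changes run from -2.74 for Txnrd1 to 1.41 for Stom. Values are those of transcripts that carry the gene's name.

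Muscle transcription factors came next, starting with those that act with MyoD. Myf5, a regulator of muscle commitment related to MyoD, was at 2.01 and 4.15 scaled TPM in wild type with MyoD and at 0 and 0 with both agents. Clone 1 had 15.0 and 4.10, then 0 and 0. Clone 2 had 0 and 0.405, then 0 and 0. So Myf5 was listed only in MyoD-only libraries, and in 5 of those 6; the test across genes did not call it (limma, adjusted p = 0.715). Without virus the gene showed the same split: it was listed above 0 in 5 of 6 untreated libraries and at 0 in 6 of 6 with the plasmid.

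Eya4, a coactivator of the eyes-absent family, had a log2 change of -0.96 (limma, adjusted p = 0.80). Its clearest separation was in clone 2, with 2.13 and 2.50 scaled TPM, then 0.209 and 0.0808. By overlap that separation was gone (6.48 and 8.22, then 7.198 and 8.06) and the change had the other sign, 0.42. Myog, the myogenin factor of early differentiation, showed no such separation: wild type had 7.29 and 5.09, then 6.36 and 4.495, clone 1 had 0 and 6.52, then 0 and 0, and clone 2 had 22.5 and 11.3, then 18.4 and 25.6. Its log2 change was -0.40 with a 95% interval of -1.46 to 0.66. By overlap its change was -0.13, and clone 1 had 0 and 5.95, then 0 and 2.12. Mef2c, a partner factor of MyoD, was below the minimum level for testing under its name, at 0.0126 to 1.85 scaled TPM; by overlap it had -0.28.

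Of the 20 myogenic regulators listed, 13 were tested and 0 were called. Their signs were 4 positive and 9 negative, with a median log2 change of -0.33, against 4883 positive, 4399 negative and a median of 0.02 for all genes tested. With unnamed transcripts given by overlap, the signs became 7 and 8 and the median -0.04.

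Contractile genes were mostly positive and small in size. Of 48 sarcomere genes, 18 were tested and 0 called; 15 had a positive and 3 a negative log2 change, with a median of 0.24. The median was 0.60 in wild type, 0 in clone 1 and 0.09 in clone 2. With unnamed transcripts given by overlap, 31 were tested, 19 positive and 12 negative, and the median was 0.04.

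Myl1, a fast myosin light chain, had 4.18 and 8.23 scaled TPM in wild type with MyoD and 12.04 and 13.3 with both agents. Clone 1 had 0 and 4.93, then 6.89 and 4.22, and clone 2 had 48.1 and 16.5, then 38.9 and 41.3. The arms overlapped in both clones and not in wild type (log2 change 0.96, limma adjusted p = 0.85). Lmod3, which nucleates thin filaments, was at 0 in the 4 MyoD-only libraries of wild type and clone 1. With both agents it stood at 1.47 and 1.02 in wild type and 0.559 and 1.33 in clone 1, while in clone 2 the arms overlapped (2.90 and 0.697, then 2.53 and 1.07). Its log2 change was 0.72 (limma, adjusted p = 0.80) and 0.30 by overlap, where the wild type arms overlapped.

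Acta1, skeletal muscle actin, had 6.14 and 8.26 scaled TPM in wild type with MyoD and 9.97 and 14.4 with both. Clone 1 had 0 and 5.99, then 0 and 0, and clone 2 had 55.6 and 26.0, then 34.6 and 53.3. Its log2 change was -0.18 with an interval of -1.26 to 0.89. By overlap the sign was the other, 0.33, and clone 1 had 1.34 and 5.45, then 5.30 and 2.33. Mylpf and Tnnc2, a fast myosin light chain and a fast troponin C, were listed at 0 to 1.01 scaled TPM in all 4 clone 1 libraries. Ckm, muscle creatine kinase, was listed at 0 in all 8 libraries of wild type and clone 1 and at 1.09 to 2.48 in clone 2. Myh3, embryonic myosin heavy chain, and Mki67, a proliferation marker, were listed at 0 under their names in all 12 libraries. By overlap, Myh3 stood at 0 and 1.29 in clone 1 with MyoD and at 0 and 5.51 with both agents. In wild type Myh3 by overlap had 2.61 and 1.15, then 5.63 and 4.57. Clone 2 had 4.54 and 4.67, then 2.66 and 6.16, and the change over lines was 0.58. Mki67 by overlap was above 0 in all 12 libraries, so its zeros were in how the transcripts were named. Its wild type levels were 3.62 and 4.09, then 6.604 and 10.9, while the arms overlapped in both clones (log2 change 0.49).

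Fusion genes were led by Rac1, described above, and by Mymk, the membrane protein myomaker. Mymk had 6.71 and 3.37 scaled TPM in wild type with MyoD, then 12.8 and 9.15 with both agents. Clone 1 had 0 and 0, then 2.88 and 0, and clone 2 had 5.45 and 1.66, then 4.97 and 6.99. The log2 change was 0.91 (95% interval 0.11 to 1.72, limma adjusted p = 0.80), and 0.31 (adjusted p = 0.95) with unnamed transcripts given by overlap. Of 12 fusion genes tested, 8 were positive and 4 negative, with a median of 0.29 and 0 called. That direction turned on clone 1: the signs were 4 and 8 (median -0.14) without its MyoD replicate 1, and 5 and 7 (median -0.07) without its MyoD plus plasmid replicate 1. The 8 tested genes of calcium handling and the neuromuscular junction had 2 positive and 6 negative changes and a median of -0.18. Over 24 alternative fits of this list the median ran from -0.43 to 0.11 and was above 0 in 2.

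**Figure D3:**
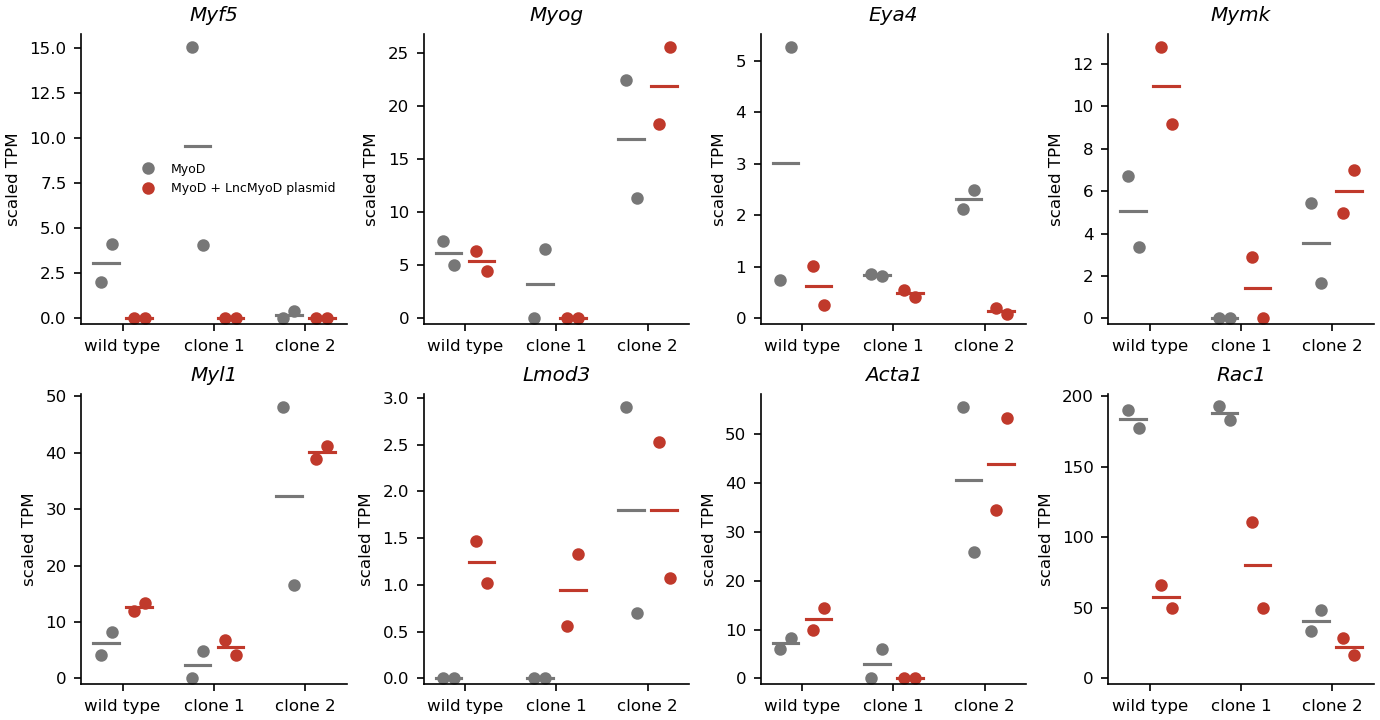
Scaled TPM of 8 genes of muscle regulation, contraction and fusion in the 12 libraries with MyoD; each point is 1 library and short lines are means of 2. Myf5 is at 0 in all plasmid libraries, Rac1 is lower with the plasmid in each line, and Acta1 and Myog overlap between arms in clone 2.

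The growth-factor locus and the known partner of LncMyoD showed no called change. Igf2, a growth factor that muscle cells secrete, had 440 and 433 scaled TPM in wild type with MyoD and 603 and 601 with both agents. In clone 1 it had 71.2 and 110, then 88.0 and 125, and in clone 2 it had 7.37 and 4.69, then 3.76 and 4.39. The sign of its change was positive in wild type and clone 1 and negative in clone 2 (mean log2 0.09, interval -0.33 to 0.50). H19, the noncoding RNA beside Igf2, had -0.16 (interval -0.50 to 0.18). Igf2bp2 had 0.21 (interval -0.90 to 1.32), and -0.11 by overlap. Its reported targets Nras and Myc had 0.06 and -0.19, and by overlap -0.88 and -0.19. Of the 11 tested genes of this list, 6 were positive and 5 negative.

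Chromatin genes of the SWI/SNF remodeller, which MyoD recruits, had 10 positive and 9 negative changes among 19 tested. Smarcc1, a core subunit, had -1.62 (limma, adjusted p = 0.80). Its wild type levels were 20.5 and 19.3 scaled TPM, then 13.8 and 2.69. By overlap they were 20.4 and 20.04, then 13.8 and 17.5, and the change over lines was -0.11. Smarca4, the Brg1 ATPase, was listed at 0 in the 2 wild type libraries with MyoD and at 15.2 and 12.1 with both agents. It was at 0 in all 4 clone 1 libraries. With unnamed transcripts given by overlap, those wild type levels were 21.2 and 15.8, then 22.2 and 16.1. Clone 1 by overlap had 37.3 and 19.7, then 30.8 and 23.1. So the wild type difference and the clone 1 zeros were in how the transcripts were named.

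Mitochondrially encoded genes, the respiratory chain subunits made inside the mitochondrion, all had a negative sign: 13 of 13 were below 0, with a median log2 change of -0.39 and a range of -0.57 to -0.25. None was called; 10 had an unadjusted p under 0.05. The mean change was negative for 13 of 13 in wild type, 12 of 13 in clone 1 and 13 of 13 in clone 2. Their summed level in wild type was 8247 and 8291 scaled TPM with MyoD, then 5995 and 8278 with both agents, so those arms overlapped. Clone 1 had 9444 and 8127, then 6232 and 7234, and clone 2 had 24113 and 27587, then 20150.5 and 15629. The sign of all 13 held under each of the 26 alternative fits, with medians of -0.47 to -0.26, though most of these fits used the same scaled values. These genes come from shared precursor RNAs, so they are not separate observations.

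The gene with the smallest p among them, mt-Cytb, a cytochrome b subunit, had 1628 and 1525 scaled TPM in wild type with MyoD and 1201 and 1414 with both agents. Clone 1 had 1436 and 1232, then 1058 and 949, and clone 2 had 3181 and 3889, then 2883 and 2302. Its plasmid libraries lay below the MyoD-only libraries in every line (log2 -0.38 ± 0.09, limma adjusted p = 0.69). mt-Co3, a cytochrome c oxidase subunit, had -0.45 ± 0.12. Without MyoD, the median of the same 13 genes with the plasmid was 0.15. In bulk RNA, fewer cells of a type and less RNA per cell cannot be told apart.

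**Figure D4:**
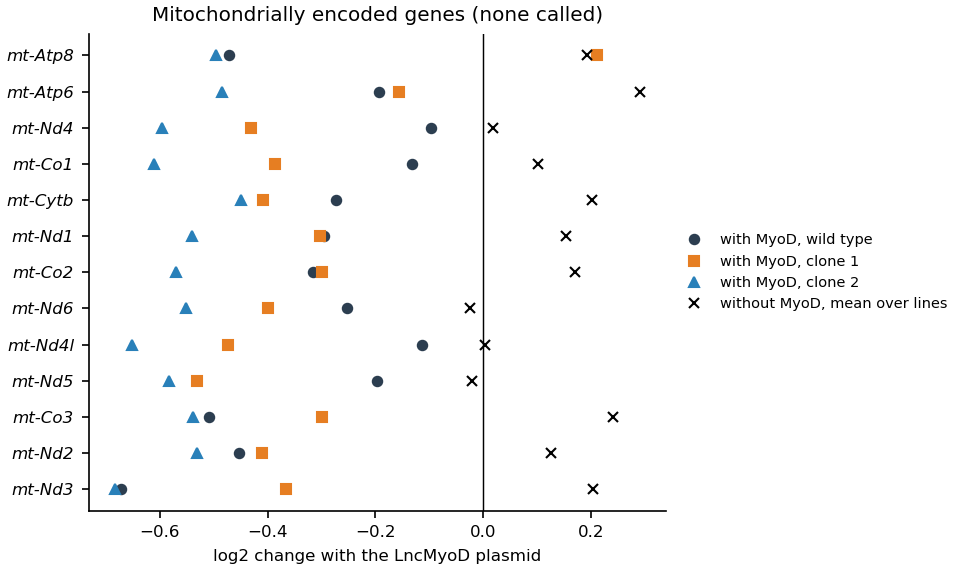
Log2 change with the plasmid of 13 mitochondrially encoded genes; symbols are the mean change in each line with MyoD, and crosses are the mean over lines without MyoD. All symbols with MyoD lie below 0 except mt-Atp8 in clone 1 at 0.21, and the crosses lie between -0.02 and 0.29.

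Other cell programmes gave no called member either. Of 29 tested fibroblast and matrix genes, 22 were positive and 7 negative, with a median of 0.22. Timp3, a metalloproteinase inhibitor, had 0.42 (interval 0.08 to 0.76; 0.24 by overlap) and Mmp14, a membrane metalloproteinase, had -0.45 (interval -0.86 to -0.05). Col1a1, the type I collagen chain, had 0.17 and stood at 72.2 to 214 scaled TPM in the 12 libraries, so this 1 fibroblast marker was present in both arms. Among 20 tested interferon response genes, which foreign nucleic acid can induce, 10 were positive and 10 negative. The 2 of these with an unadjusted p under 0.05 were Ifit2 (1.14) and Ifih1 (0.77), both sensors or effectors of viral RNA.

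Of 23 tested cell cycle genes, 11 were positive and 12 negative, and of 19 genes of cell cycle exit and p53, 10 were positive and 9 negative. Cdkn1b, the p27 inhibitor of cyclin-dependent kinases, had -0.45 (interval -0.87 to -0.02). Markers of macrophages and epithelium had no member that passed the filter. Adipocyte, cartilage and bone, heart and neuron markers had 4, 5, 1 and 2 members tested, with 0 called.

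The rescue question was put to the 2 clones together. In the mean of both clones, 0 of 9282 genes were called (0%), with 582 at an unadjusted p under 0.05 (6.27%). This count depended on clone 1: it was 169, 139 of them higher, without MyoD replicate 2 of clone 1, where the remaining library had 36.8% of its signal in the ribosomal repeat against 59.2% to 64.6% in the other clone 1 libraries. It was 28 without MyoD plus plasmid replicate 1 of clone 1, 9 without its replicate 2, 4 without MyoD replicate 1 of clone 1, and 0 or 1 without any other library. The part of that ribosomal share in these counts was not tested. With wild type left out of the fit it was 2. The mean over 2 clones uses the spread between libraries, not between clones.

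Genes whose arms separated in both clones in 1 direction, and not so in wild type, numbered 186 higher (2%) and 171 lower (1.84%). Such separation also arises without any plasmid effect, and the counts were not tested against that rate. Described here are the 10 in each direction with the smallest p for the difference between clones and wild type. None of the 20 was called for that difference, with adjusted p-values of 0.337 to 0.947 (limma). Since the clones were required to separate, the separation is again how they were chosen. It depended on transcript names more than above: by overlap, 3 of the 10 higher and 3 of the 10 lower genes stayed separated in both clones. The median difference between clones and wild type was then 0.42 in place of 1.79 for the higher genes and -1.03 in place of -1.63 for the lower.

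Cpsf7, Ttc30b and Fkbp3 are the higher genes that stayed separated by overlap. Cpsf7, a cleavage and polyadenylation factor, had 0.0833 and 2.21 scaled TPM, then 8.78 and 4.39 in clone 1, and 2.98 and 2.71, then 7.04 and 5.35 in clone 2. Wild type overlapped, at 10.3 and 7.12, then 7.88 and 5.44. Its change was larger in the clones than in wild type by 1.77 log2 units, and by 0.73 by overlap. For Fkbp3, an immunophilin of the nucleus, the difference was 2.52 and 1.85, and for Ttc30b, a protein of transport within cilia, it was 1.15 and 1.20.

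Cmtr1, which methylates the mRNA cap, had 1.84 and 0.470 scaled TPM in clone 1 with MyoD, then 9.24 and 11.6 with both agents, and a difference between clones and wild type of 1.81. By overlap clone 1 had 18.4 and 31.8, then 25.4 and 9.40, so the arms overlapped, and the difference was 0.26. Rbm8a, a core protein of the exon junction complex, had a difference of 1.52 and 0.92 by overlap. For the other 5 the differences shrank likewise: Tex10 from 2.04 to 0.12, Igbp1 from 1.94 to 0.08, Dpp7 from 1.86 to 0.41, Cyb5r1 from 1.13 to 0.22 and Arpc1b from 0.67 to 0.44. Under their names, Igbp1, Tex10, Arpc1b, Ttc30b and Cyb5r1 had plasmid libraries below the MyoD-only libraries in wild type, so part of their difference lay there.

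Irgm2, Pcyt2 and Ppa2 are the lower genes that stayed separated by overlap. Irgm2, an interferon-inducible GTPase, went from 8.20 and 7.31 scaled TPM to 1.92 and 3.796 in clone 1 and from 2.27 and 2.47 to 1.34 and 1.54 in clone 2. In wild type it had 12.02 and 16.9, then 19.7 and 20.01. Its difference between clones and wild type was -1.29, and -1.24 by overlap. Pcyt2, an enzyme of phosphatidylethanolamine synthesis, had -2.66 and -2.22, and Ppa2, a mitochondrial pyrophosphatase, had -2.49 and -1.33.

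Pcgf2, a Polycomb RING finger protein, went from 24.4 and 38.4 scaled TPM to 8.34 and 11.7 in clone 1. By overlap it had 27.3 and 35.01, then 40.4 and 26.7 there, and its difference of -1.43 became 0.06. Ssbp4 had the largest difference of the 10, -3.14, which turned to 0.64 by overlap. The others were Coro7 (-1.92 and -2.33 by overlap), Aak1 (-1.79 and -1.25), Vgll4, a cofactor of the TEAD factors (-1.46 and -0.82), R3hcc1 (-1.01 and -0.52) and Tor1aip2, a nuclear envelope protein (-0.90 and -0.30). Under their names, the wild type arms separated in the opposite direction in 8 of the 10, all but Coro7 and Pcyt2.

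The test of clones minus wild type called 1 of 9282 genes (0.0108%), with 487 at an unadjusted p under 0.05 (5.25%). This was Ywhaq, the 14-3-3 theta adaptor, with a difference of -3.96 log2 units (limma, adjusted p = 0.0421). It was listed at 0.0278 and 0.0192 scaled TPM in wild type with MyoD and at 12.99 and 18.9 with both agents. Clone 1 was near 0 in all 4 libraries (0.03 to 0.19) and clone 2 had 55.3 and 50.1, then 51.4 and 55.8. With unnamed transcripts given by overlap, wild type had 23.98 and 22.2, then 12.98 and 17.8, clone 1 had 8.03 to 12.4, and the difference was 0.78 log2 units with an adjusted p of 0.999. With 1 library left out at a time, Ywhaq was called in 3 of 12 fits: without either MyoD-only library of clone 1, and without wild type replicate 1 given both agents. The call was thus lost when transcripts were given by overlap. It was also lost in fits that kept the names, such as quantile normalization, a pseudocount of 0.1 or either clone left out.

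The same contrast was then taken without MyoD, in 12 libraries that share none with the main comparison. Of 9543 genes tested, 0 were called (0%), with 557 at an unadjusted p under 0.05 (5.84%). The lowest adjusted p was 0.258. Genes named above with a negative change with MyoD included several with a positive change here, such as Rac1 (0.75 ± 0.24), H1f0 (1.04 ± 0.30) and Socs5 (1.22 ± 0.19).

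The change with MyoD minus the change without it was tested over all 24 libraries. Of 11807 genes, 10 were called (0.0847%), all 10 lower, with 797 at an unadjusted p under 0.05 (6.75%). They were Vat1, Socs5, Rac1, Cdk16, H1f0, Trir, Phlda3, Zfp385a, Tbc1d20 and Mospd3, with differences of -2.68 to -1.54 log2 units and adjusted p-values of 0.0388 to 0.0476 (limma). In each, the plasmid change was negative with MyoD and positive without it in all 3 lines, for transcripts that carry the gene's name. Since the 10 were chosen by this difference, their opposite signs partly describe how they were chosen. By overlap 13 genes were called, and 8 of these 10 were among them, with adjusted p-values of 0.0057 to 0.0129. Zfp385a (-1.39, adjusted p = 0.0838) and Tbc1d20 (-0.70, adjusted p = 0.72) were not, and Tbc1d20 in clone 1 then had 8.93 and 12.7 scaled TPM with MyoD and 12.8 and 19.4 with both agents, a change in the other direction. The call count was 0 without scaling, with a pseudocount of 0.1, without the filter on low values, and with wild type or clone 1 left out, and it ranged from 0 to 11 when single libraries were left out. It was 0 without any 1 of the 8 wild type libraries.

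Rac1 without virus had 73.4 and 151 scaled TPM in untreated wild type and 201 and 250 with the plasmid. Clone 1 had 79.2 and 130, then 208 and 220, and clone 2 had 16.9 and 29.1, then 22.5 and 25.7. So the plasmid libraries were above the untreated ones in wild type and clone 1 and overlapped them in clone 2, while with MyoD they were below in all lines (difference -2.04 ± 0.35). Socs5 without virus went from 62.5 and 48.8 to 112 and 123 in wild type, from 17.3 and 30.0 to 80.3 and 50.3 in clone 1, and from 1.97 and 2.06 to 7.72 and 4.19 in clone 2. Its difference was -2.64 ± 0.44.

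Vat1 went from 48.4 and 73.7 to 134 and 141 in wild type without virus, from 28.8 and 29.5 to 60.3 and 62.6 in clone 1, and from 3.98 and 5.70 to 8.43 and 5.69 in clone 2 (difference -1.82 ± 0.29). Phlda3, a p53 target that restrains Akt signalling, had 86.6 and 84.6 scaled TPM in clone 2 with MyoD and 39.2 and 31.7 with both agents. Without virus, clone 2 had 25.0 and 51.1, then 74.8 and 65.0 (difference -1.68 ± 0.31). Trir, an RNA-processing protein, was at 0 in the untreated wild type and clone 1 libraries and at 1.62 to 2.85 there with the plasmid; its fitted difference of -2.68 depends on the pseudocount. Zfp385a, a p53 cofactor, had the smallest difference of the 10, -1.54 ± 0.29. The median GC content of the longest transcripts of the 10 genes was 56.5%, against 49.6% for the 9282 genes tested with MyoD, and the part of GC content in these calls was not tested.

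**Figure D5:**
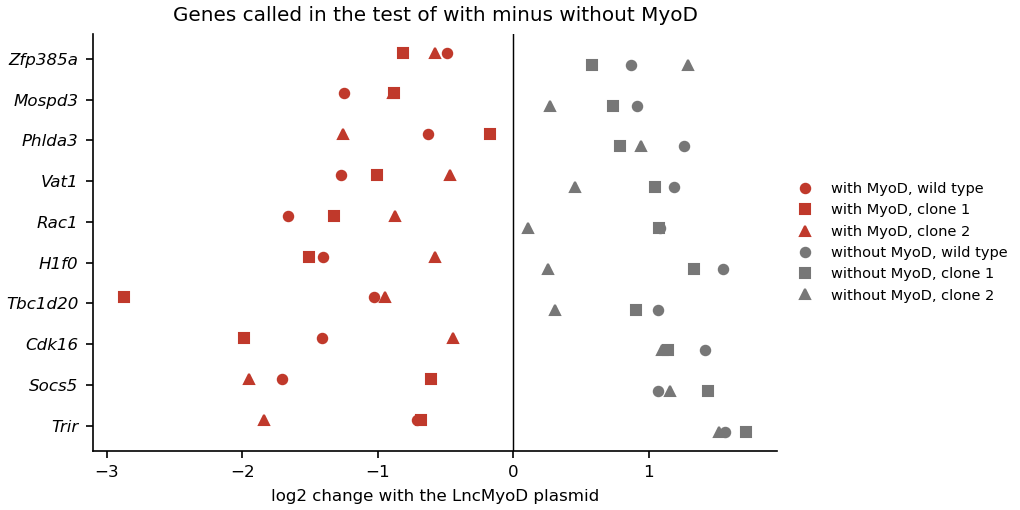
Log2 change with the plasmid of the 10 genes called in the test of with minus without MyoD; red symbols are the mean change in each line with MyoD, grey symbols the mean change in each line without MyoD. All red symbols lie below 0 and all grey symbols above 0, for transcripts that carry the gene's name. The choice of genes by this test favoured opposite signs. By overlap Tbc1d20 in clone 1 was higher with the plasmid.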

How the data were processed

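Paired reads of 100 nt came from SMART-Seq v4 cDNA of total RNA, which does not mark strand (per the labels' protocols). HISAT2 2.1.0 and StringTie 1.3.3 on mm10 appear in the submitters' processing notes, whereas StringTie 2.1.2 with GENCODE vM21 appears in the file headers. Per the file headers, the authors deposited coverage, FPKM and TPM per assembled transcript. TPM was summed by reference gene and divided by median-of-ratios factors over 24 libraries (5091 genes; 0.388 to 4.70 in the 12). Transcripts without a reference gene held 17.5% to 72.6% of TPM in the 12 and entered only in an alternative that gave them to a gene sharing at least 50% of their exonic length. Genes with at least 1 scaled TPM in at least 4 libraries of a fit were tested by limma 3.58.1 in R 4.3.3, its prior variance following mean level, on log2(scaled TPM + 1), which understates changes of low genes. Line was the block. Calls needed a Benjamini-Hochberg adjusted p under 0.05.

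The members and the 26 gene lists were chosen with earlier results of these data known. Named were 16 fixed features, up to 12 genes per direction for all lines and 10 for both clones (leaving out mitochondrial, small RNA, ribosomal protein and predicted genes), all calls of the differences, and of each list the 2 members with the smallest p; any further gene was named with its values known. The fits were tested on simulated data. Alternatives were scaling, pseudocount, filter, transcript naming, array weights, robust variances, replicate block, all 24 libraries, and leaving out lines or libraries. The fit of all 24 libraries gave each line and MyoD state its own plasmid term.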

Additional observations from a re-analysis of the deposited data

Results flagged for a closer look

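The plasmid change in the clones differed from that in wild type for Ywhaq, by -3.96 log2 units (limma, adjusted p = 0.0421). Its wild type arms separated fully and its clone arms overlapped. It was called in 7 of 23 alternative fits.

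In 10 genes the plasmid change differed with and without MyoD (limma with Benjamini-Hochberg adjustment, log2 with minus without). The differences were -1.82 for Vat1, -2.64 for Socs5 and -2.04 for Rac1, each at an adjusted p of 0.0388. They were -2.50 for Cdk16, -2.21 for H1f0, -2.68 for Trir and -1.68 for Phlda3, at 0.0433. The values were -1.54 for Zfp385a, -2.37 for Tbc1d20 and -1.65 for Mospd3, at 0.0476. The sign of the change was the same in all 3 lines on each side of the comparison, which their choice by this test favoured. By overlap Tbc1d20 in clone 1 with MyoD had the other sign. Over 37 alternative fits, Vat1 and Socs5 were called in 15 each, Rac1 in 12, H1f0 in 11, Cdk16 and Mospd3 in 10 each, Phlda3 in 9, Trir in 8, and Zfp385a and Tbc1d20 in 4 each.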

How the results depend on the processing

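The count of genes called with line as block was 0 and stayed 0 except with array weights (1), without clone 1 (2), with all 24 libraries (29), and in the range over single libraries left out (0 to 1; 1 without MyoD replicate 2 of clone 1). For the mean of both clones it was 0, but 6 without scaling, 18 with a pseudocount of 0.1, 2 without wild type, 1 without clone 1, and 0 to 169 with single libraries left out. For clones minus wild type the 1 call was lost (0) with quantile normalization, a pseudocount of 0.1, no filter, transcripts given by overlap, robust variances, or either clone left out; it was 3 with a filter at 5 scaled TPM and 0 to 5 with single libraries left out. Ywhaq reversed to 0.777 with transcripts given by overlap. Without MyoD the count was 0, but 1 without clone 1 and 1 without clone 2; it was 0 in all 12 fits that left out a library. With minus without MyoD, the 10 calls were 0 without scaling, with a pseudocount of 0.1, without a filter, without wild type and without clone 1; they were 6 with array weights, 4 without clone 2, and 0 to 11 with single libraries left out (0 in 13 of 24). The cause was not tested. Without scaling, the median of all genes moved to 0.12 for the mean of both clones and to 0.31 for clones minus wild type.

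With the replicate number as a block the counts were 0 for the line fit, the mean of both clones, clones minus wild type and with minus without MyoD. Same-numbered libraries of the 2 arms did not deviate together (correlations -0.00379, -0.0535 and -0.0249 in wild type, clone 1 and clone 2). These correlations show no shared shift, and they cannot show whether same-numbered libraries were prepared together. A left-out library leaves its group with 1 sample, which is assumed to vary like the other groups. The files hold no counts, so a low level cannot be told from a failed assembly.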
